A study of Mus musculus with 3 samples.

Results

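The 10 genes described here handle iron, bind metals or respond to oxidative stress, and were taken as a fixed list of 10 of the 17126 genes listed in at least 1 of the 3 deposited tables. They are the ferritin subunits Fth1 and Ftl1, the iron importer Tfrc, the iron exporter Slc40a1, the haem-degrading enzyme Hmox1, the metallothioneins Mt1 and Mt2, and the thiol enzymes Gclm, Txnrd1 and Srxn1. No rule on measured values set the list, but it was chosen with earlier results of these data known. All 10 had UMIs (unique molecular identifiers, 1 per captured transcript) in all 3 libraries.

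The study profiled single interstitial cells of mouse hearts, which were minced and digested with collagenase, cleared of cardiomyocytes by a slow spin, and then sorted on Lin28 and cKit at the cell surface. The Lin28+/cKit+ library held 1176 cells, the Lin28+/cKit- library 681 cells and the Lin28-/cKit- library 3976 cells. Each group is 1 library with no replicate, so no p-value can be given, and every interval below covers counting error only. The labels state neither the strain, sex, age nor number of the mice, and they name no treatment or genetic change.

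Cells store spare iron in ferritin, a shell of heavy (Fth1) and light (Ftl1) chains, take it up through the transferrin receptor (Tfrc) and release it through ferroportin (Slc40a1). Heme oxygenase 1 (Hmox1) frees iron from haem, and tissue macrophages that clear red cells are known for high Hmox1 and ferroportin. Metallothioneins are small cysteine-rich proteins that bind zinc and copper and are induced through the factor MTF1 and by glucocorticoids, while Gclm (glutathione synthesis), Txnrd1 (thioredoxin reductase) and Srxn1 (sulfiredoxin, which repairs oxidised peroxiredoxins) are known targets of the factor NRF2.

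On GRCm38 (mm10), GENCODE vM21, Fth1 lies at chr19:9980598-9985098 (plus strand), Ftl1 at chr7:45457944-45459884 (minus strand), Slc40a1 at chr1:45908068-45926523 (minus strand) and Tfrc at chr16:32608920-32632794 (plus strand). Hmox1 lies at chr8:75093621-75100589 (plus strand), Mt2 at chr8:94172664-94173568 (plus strand) and Mt1 at chr8:94179082-94180327 (plus strand). The thiol enzyme genes lie at chr3:122245557-122270732 (plus strand) for Gclm, chr10:82833951-82897712 (plus strand) for Txnrd1 and chr2:152105516-152111376 (plus strand) for Srxn1. All 10 are annotated as protein-coding genes.

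The iron genes carry iron responsive elements, hairpins in the untranslated regions that bind the iron regulatory proteins. In the 5′ untranslated region they block translation when iron is scarce, and in the 3′ untranslated region of Tfrc they protect the transcript. A search for CNNNNNCAGTGN on the sense strand, with all 5 stem pairs formed (G-T pairs allowed), found 7 elements in 4 of the 10 genes. They are shown because the text returns to these 4 transcripts; capitals mark the bulged C and the 6-base loop, and coordinates are GRCm38 (mm10), GENCODE vM21, written 5′ to 3′ on the gene's strand.
Fth1, 5′ untranslated region, chr19:9982732-9982760, plus strand: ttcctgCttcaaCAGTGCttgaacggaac
Ftl1, 5′ untranslated region, chr7:45459779-45459807, minus strand: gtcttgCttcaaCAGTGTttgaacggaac
Slc40a1, 5′ untranslated region, chr1:45925465-45925493, minus strand: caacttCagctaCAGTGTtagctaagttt
Tfrc, 3′ untranslated region, chr16:32631219-32631247, plus strand: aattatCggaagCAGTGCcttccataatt
Tfrc, 3′ untranslated region, chr16:32631598-32631626, plus strand: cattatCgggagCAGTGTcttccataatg
Tfrc, 3′ untranslated region, chr16:32631663-32631691, plus strand: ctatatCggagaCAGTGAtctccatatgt
Tfrc, 3′ untranslated region, chr16:32631710-32631738, plus strand: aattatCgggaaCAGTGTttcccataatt
Among 21877 genes with protein-coding transcripts, 31 (0.142%) had such a match in a 5′ untranslated region and 129 (0.59%) in a 3′ untranslated region. A match is a description of the letters, and RNA levels alone do not show how strongly these transcripts were translated.

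Mt1 and Mt2 lie 5513 bases apart on chromosome 8 and both run on the plus strand. The core of the metal response element bound by MTF1, TGCACNC or TGCGCNC, was counted on both strands of 300-base RefSeq promoter windows (GRCm38.p6, 250 bases before to 50 after the annotated start). Mt1 held 3 matches and Mt2 held 4. The matches are shown with 6 flanking bases on each side and the core in capitals, on the plus strand; a core that lies on the minus strand reads in its reverse complement.
Mt1, chr8:94179060-94179078: ccgctgTGCACACtggcgc
Mt1, chr8:94179085-94179103: gagctcTGCACTCcgcccg
Mt1, chr8:94179103-94179121: gaaaagTGCGCTCggctct
Mt2, chr8:94172389-94172407: cgcctcTGCACCCggcccc
Mt2, chr8:94172484-94172502: acccttTGCGCTCagctcc
Mt2, chr8:94172562-94172580: gagggcGTGTGCAggctct
Mt2, chr8:94172616-94172634: cgggtcGTGCGCAggccca
Of 32851 promoter windows, 25.7% held at least 1 match, 1.97% at least 3 and 0.517% at least 4. Among the other members with a window, Gclm held 3 matches, Srxn1 held 1, 1 of the Tfrc windows held 2 overlapping matches, and Fth1, Ftl1 and Txnrd1 held 0. The core of the antioxidant response element bound by NRF2, TGACNNNGC, occurred once each in the windows of Mt2, Gclm, Srxn1 and 1 of the Txnrd1 starts, against 12.4% of all windows with at least 1 match. Hmox1 and Slc40a1 had no promoter window in the sources used, so neither was searched for these cores.

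Cells were clustered without the 10 genes and without Kit, and clusters were named from marker lists. Macrophage-like cells made up 51.0% of the Lin28+/cKit+ cells, 39.2% of the Lin28+/cKit- cells and 0.352% of the Lin28-/cKit- cells (600, 267 and 14 cells). Endothelial-like cells made up 36.7%, 36.1% and 23.5% in the same order (432, 246 and 934 cells), and fibroblast-like cells 0.85%, 4.85% and 69.0% (10, 33 and 2745 cells). Levels are given as CPM, the UMIs of a gene divided by all UMIs of the same cells and multiplied by 1000000. The summed level of the 10 macrophage markers in macrophage-like cells was 25742 CPM in the Lin28+/cKit+ library and 25153 in the Lin28+/cKit- library. Endothelial markers summed to 28305, 28110.1 and 23889 in endothelial-like cells of the Lin28+/cKit+, Lin28+/cKit- and Lin28-/cKit- libraries, and fibroblast markers to 29098 in Lin28-/cKit- fibroblast-like cells. Intervals in parentheses after a level are exact 95% Poisson intervals. The kit reads 3′ ends, so each UMI counts a transcript whatever its length. Total UMIs were 10400648, 7401174 and 34031955, median UMIs per cell 8068.5, 9628 and 8630, and 1 to 8 cell barcodes were shared between the Lin28+/cKit+ library and each of the others (0 between the other two).

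RNA set free from broken cells reaches all droplets, and its level was estimated in each class from the markers of the largest other class. In endothelial-like cells these markers stood at 4.12% of their library level in the Lin28+/cKit+ library, 2.94% in the Lin28+/cKit- library (macrophage markers in both) and 10.8% in the Lin28-/cKit- library (fibroblast markers). At those shares, free RNA would give 70.3%, 85% and 96.9% of the Mt1 level measured in endothelial-like cells, 61.8%, 68.7% and 91.5% of the Mt2 level, 49.3%, 50.3% and 54.2% of the Hmox1 level and 54%, 24.7% and 125% of the Slc40a1 level (from 8, 11 and 3 UMIs). The shares were 17.2%, 12.2% and 21.4% of the Fth1 level and 2.71%, 2.63% and 11.3% of the Gclm level. The estimate counts every UMI of the other class's markers as free RNA. Endocardial cluster 9 held 108 of the 934 Lin28-/cKit- endothelial-like cells and 397 of their 868 Mt1 UMIs. Over all its cells, 3 of 10 fibroblast markers stood at raised levels. In the Lin28+/cKit+ library summed fibroblast markers stood at 490.5 CPM in endothelial-like cells and 8.77 in macrophage-like cells. In the Lin28+/cKit- library they stood at 190.1 and 11.5. Fibroblast markers were thus not spread evenly over the classes of a library. Own expression of these markers was not tested, so the Lin28-/cKit- shares may be too high. Endothelial-like levels of Mt1, Mt2, Hmox1 and Slc40a1 are therefore to be read beside these shares and are not taken as expression by endothelial cells.

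In all 3 libraries the iron and metallothionein transcripts came mostly from the most abundant cell class that is not endothelial. Macrophage-like cells held 65.8% of all UMIs of the Lin28+/cKit+ library and 59.7% of the Lin28+/cKit- library, but 94.7% and 89% of the Mt1 UMIs, 96.3% and 94.5% of the Hmox1 UMIs and 96.1% and 93% of the Slc40a1 UMIs. Gclm was spread more evenly: macrophage-like cells held 54.2% and 51.6% of its UMIs, and endothelial-like cells 39.2% and 30%. In the Lin28-/cKit- library fibroblast-like cells held 82% of all UMIs and between 52.6% (Tfrc) and 96.4% (Mt2) of the UMIs of the 10 genes.

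**Figure D1:**
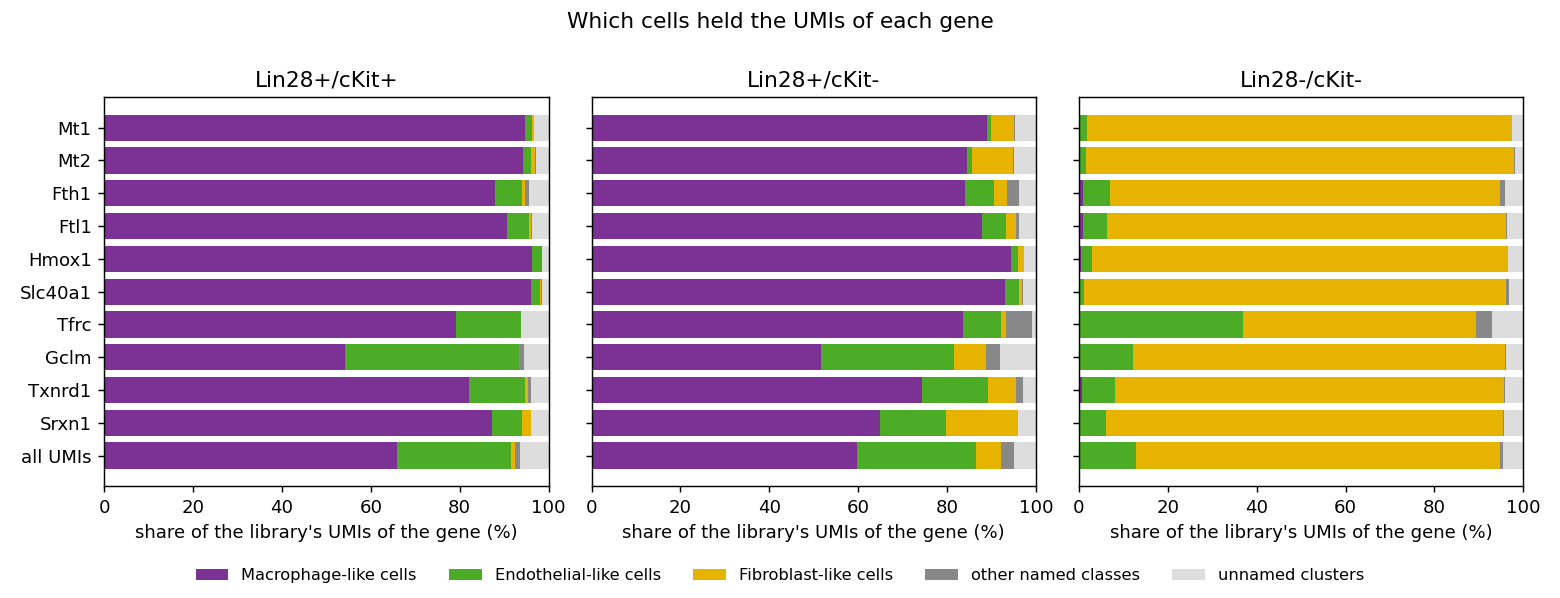
Share of each gene's UMIs (%, horizontal axis) held by each cell class, with 1 panel per library and the share of all UMIs as the lowest bar. Macrophage-like cells (purple) held 96.3% of the Hmox1 UMIs of the Lin28+/cKit+ library and 94.5% of the Lin28+/cKit- library, and fibroblast-like cells (yellow) 93.7% of the Lin28-/cKit- library.

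Ferritin transcripts were the most abundant of the 10 in every library and were highest in macrophage-like cells. Fth1, the subunit that oxidises iron for storage, stood at 10088 (10012 to 10163) CPM in Lin28+/cKit+ macrophage-like cells and 8966 (8878 to 9055) in Lin28+/cKit- macrophage-like cells. Fibroblast-like cells of the Lin28-/cKit- library had 3713 (3691 to 3736), and endothelial-like cells had 1815 (1764 to 1866), 1535 (1481 to 1590.2) and 1745 (1705 to 1785) in the Lin28+/cKit+, Lin28+/cKit- and Lin28-/cKit- libraries. Among the classes with at least 50 cells, the order macrophage, fibroblast, endothelial held with no overlap of intervals between classes. Ftl1, the light chain that seeds the iron core, followed the same order, at 13688 (13601 to 13776) and 12024 (11922 to 12126) in Lin28+/cKit+ and Lin28+/cKit- macrophage-like cells, 4064 (4039.9 to 4087) in Lin28-/cKit- fibroblast-like cells and 1948, 1599.7 and 1601 in endothelial-like cells. The lowest 2 of these, in Lin28+/cKit- and Lin28-/cKit- endothelial-like cells, did not differ beyond counting error. Reads of the processed pseudogene Ftl1-ps1 (674, 993 and 679 UMIs in the Lin28+/cKit+, Lin28+/cKit- and Lin28-/cKit- libraries) may belong to Ftl1, and the counting could split them.

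The 14 macrophage-like cells of the Lin28-/cKit- library had 9016 (8458 to 9600) CPM of Fth1 and 10598 (9993 to 11230.4) CPM of Ftl1. Both ferritins were thus near the levels of the macrophage-like cells of the other libraries. Mt1 was lower there, at 1935 (1681 to 2215), and Hmox1 stood at 120.3 (64.1 to 206), while Slc40a1 and Tfrc had 0 UMIs, which allows levels of up to 34.1 CPM (upper end of the exact interval). Of these 14 cells, 13 lay in macrophage cluster 7 and 1 in cluster 6. In the other libraries Slc40a1, Tfrc and Hmox1 were lower in cluster 7 than in cluster 6, while Mt1 was not lower. Hmox1 in cluster 7 of those libraries still stood far above its level in these 14 cells. The part of the cluster make-up in these levels was not tested.

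**Figure D2:**
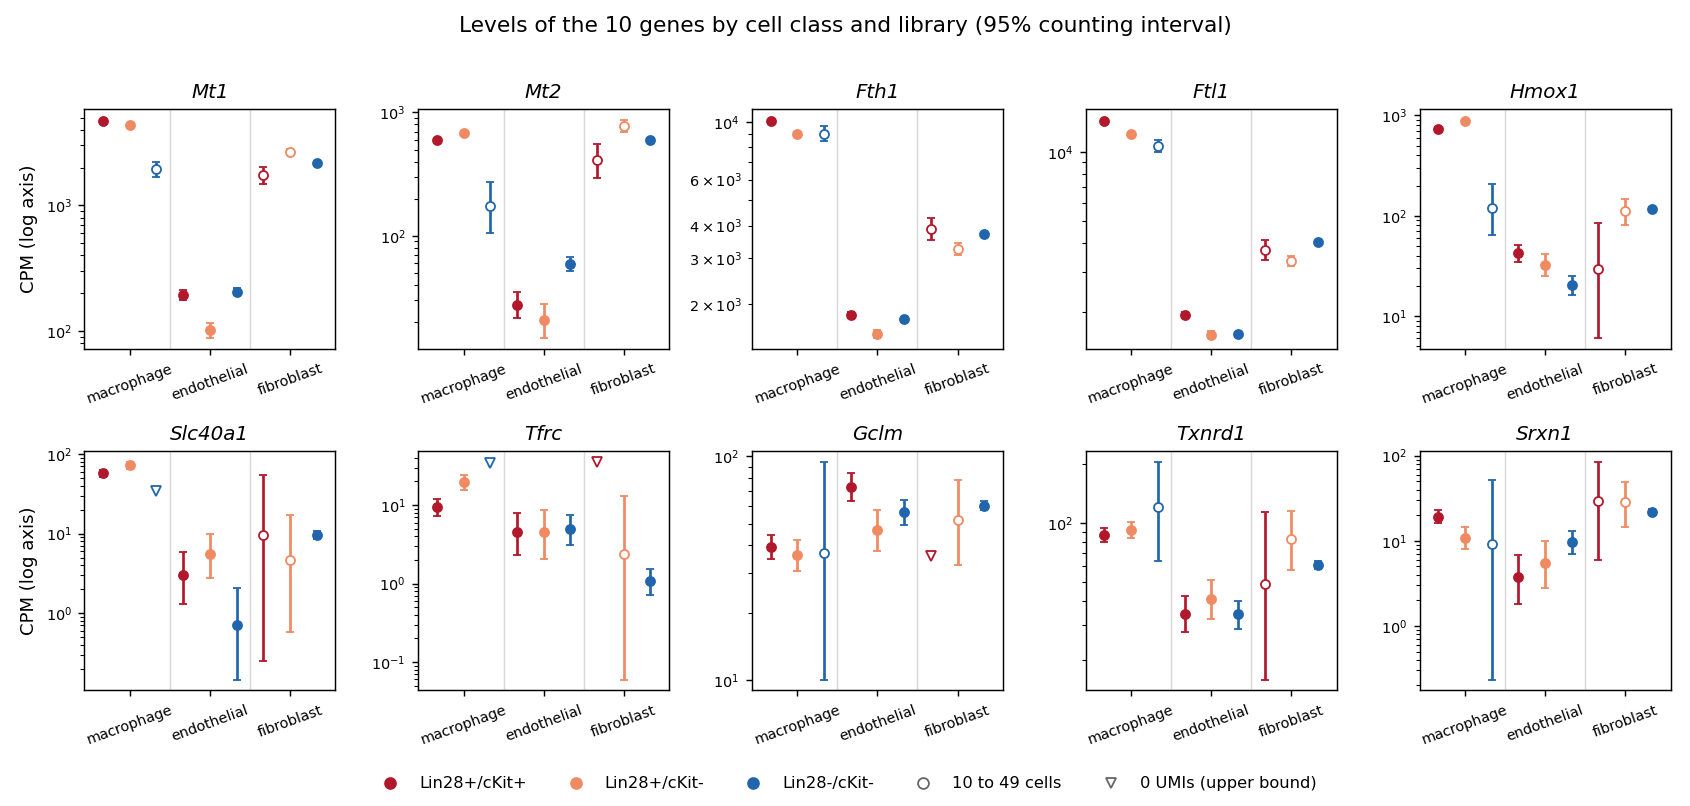
CPM (log axis) of each gene in macrophage-like, endothelial-like and fibroblast-like cells, with Lin28+/cKit+, Lin28+/cKit- and Lin28-/cKit- libraries from left to right in each class and 95% counting intervals. Mt1, Mt2, Fth1, Ftl1, Hmox1 and Slc40a1 were lowest in endothelial-like cells among the filled points (at least 50 cells), and Gclm varied least, between 36.2 and 72.9.

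The exporter and the haem enzyme were far higher in Lin28+/cKit+ and Lin28+/cKit- macrophage-like cells than in endothelial-like cells or Lin28-/cKit- fibroblast-like cells. The latter come from another library. Within the Lin28-/cKit- library, the 14 macrophage-like cells had 120.3 CPM of Hmox1, against 117 in fibroblast-like cells. Their Slc40a1 had 0 UMIs, against 9.57 CPM. The 10 Lin28+/cKit+ and 33 Lin28+/cKit- fibroblast-like cells had 29.2 and 111 CPM of Hmox1. Slc40a1 stood at 9.74 and 4.73 in them. Slc40a1 reached 57.1 (51.6 to 63.1) and 72.4 (64.7 to 80.7) CPM in Lin28+/cKit+ and Lin28+/cKit- macrophage-like cells, 9.57 (8.45 to 10.8) in Lin28-/cKit- fibroblast-like cells, and 2.99 (1.29 to 5.89), 5.55 (2.77 to 9.92) and 0.709 (0.146 to 2.07) in Lin28+/cKit+, Lin28+/cKit- and Lin28-/cKit- endothelial-like cells. The endothelial-like levels rest on 8, 11 and 3 UMIs. Hmox1 reached 739.8 (719.6 to 761) and 872 (845 to 900.2) in macrophage-like cells, 117 (113 to 121) in fibroblast-like cells and 42.2, 32.3 and 20.3 in endothelial-like cells. At least 1 Hmox1 UMI was found in 84.2% and 91.4% of Lin28+/cKit+ and Lin28+/cKit- macrophage-like cells (median depth 9853.5 and 13868 UMIs), 36.3% of Lin28-/cKit- fibroblast-like cells (10135 UMIs) and 19%, 22.8% and 7.71% of endothelial-like cells (5566.5, 7675.5 and 4053.5 UMIs). After each cell was thinned to 1000 UMIs these shares were 37%, 43.6%, 8.01%, 2.58%, 3.33% and 2.06%, in the same order, and the order of the classes was the same.

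The importer Tfrc was rare everywhere. It stood at 9.5 (7.33 to 12.1) and 19.4 (15.6 to 24) CPM in Lin28+/cKit+ and Lin28+/cKit- macrophage-like cells, between 4.49 and 4.96 in endothelial-like cells of the 3 libraries, and at 1.08 (0.725 to 1.53) in Lin28-/cKit- fibroblast-like cells. Among the classes with at least 50 cells in a library, fibroblast-like cells thus had the least Tfrc, whereas they ranked second for ferritin and Hmox1. The smaller classes, with 10 to 33 cells in a library, are left out of this order. A Tfrc UMI was found in 8% and 23.6% of Lin28+/cKit+ and Lin28+/cKit- macrophage-like cells, and in 2.55% and 3.66% of endothelial-like cells of the same libraries. After thinning these shares were 1%, 2.63%, 0.468% and 0%, which is near the level of single UMIs.

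Mt1 was the third most abundant of the 10 genes in macrophage-like and fibroblast-like cells. Its level was 4726 (4675 to 4778) CPM in Lin28+/cKit+ macrophage-like cells, 4361 (4299.8 to 4423) in Lin28+/cKit- macrophage-like cells and 2155 (2138 to 2173) in Lin28-/cKit- fibroblast-like cells. Endothelial-like cells had 193 (176 to 209.9), 101 (87.8 to 116) and 205 (192 to 219) in the Lin28+/cKit+, Lin28+/cKit- and Lin28-/cKit- libraries, most of which the free RNA share could supply. Mt2 reached similar levels in macrophage-like and fibroblast-like cells: 594 (576 to 612) and 681 (657 to 706) in Lin28+/cKit+ and Lin28+/cKit- macrophage-like cells, and 593 (584 to 602) in Lin28-/cKit- fibroblast-like cells, whose interval overlapped that of the Lin28+/cKit+ macrophage-like cells. Of the other metallothioneins, Mt3 had 0, 0 and 6 UMIs in the Lin28+/cKit+, Lin28+/cKit- and Lin28-/cKit- libraries.

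The thiol enzymes Gclm and Txnrd1 varied less between classes, and Srxn1 varied more than these. In the Lin28+/cKit+ and Lin28+/cKit- libraries Gclm, the modifier subunit of glutamate-cysteine ligase, was the only 1 of the 10 genes higher in endothelial-like than in macrophage-like cells. It had 39.5 (34.9 to 44.5) CPM in macrophage-like and 72.9 (63 to 83.9) CPM in endothelial-like cells of the Lin28+/cKit+ library. In the Lin28+/cKit- library it had 36.2 (30.8 to 42.2) and 46.9 (37.8 to 57.4), where the intervals overlapped. Txnrd1, cytosolic thioredoxin reductase, had 87.1 and 92 in Lin28+/cKit+ and Lin28+/cKit- macrophage-like cells, 60.8 in Lin28-/cKit- fibroblast-like cells and between 34 and 40.8 in endothelial-like cells. Srxn1 had 19.1 and 10.9 in Lin28+/cKit+ and Lin28+/cKit- macrophage-like cells, 21.8 in Lin28-/cKit- fibroblast-like cells and 3.74, 5.55 and 9.69 in endothelial-like cells. For both genes endothelial-like cells were lowest among the classes with at least 50 cells in a library, and for Srxn1 the highest of these endothelial-like levels, in the Lin28-/cKit- library, had an interval that overlapped that of the Lin28+/cKit- macrophage-like cells.

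Within a library, macrophage-like cells were set against endothelial-like cells as a ratio of levels, with exact conditional 95% intervals. A gene counted as higher or lower when the ratio passed 1.5-fold with at least 20 UMIs in the pair. In the Lin28+/cKit+ library 9 of the 10 genes were higher in macrophage-like cells, where 21.8% of all 10892 genes measured were, and 1 was lower (Gclm, ratio 0.541 (0.448 to 0.654)), where 41.3% of all genes were. In the Lin28+/cKit- library 9 of 10 were higher (22.4% of all genes) and 0 lower (38.1%). The median log2 ratio of the 10 genes was 2.64 in the Lin28+/cKit+ library and 2.73 in the Lin28+/cKit- library, against -0.40 and -0.32 over all genes. The ratios were 24.5 (22.5 to 26.8) and 43 (37.5 to 49.7) for Mt1, 17.5 (14.5 to 21.3) and 27 (21.1 to 35.2) for Hmox1, and 19.1 (9.6 to 44.6) and 13 (7.2 to 26.4) for Slc40a1, in Lin28+/cKit+ and Lin28+/cKit- cells. Ferritin ratios were smaller, 5.56 and 5.84 for Fth1 and 7.03 and 7.52 for Ftl1. The part of free RNA in the endothelial-like side of these ratios was not tested beyond the shares given above.

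In the Lin28-/cKit- library fibroblast-like cells were set against endothelial-like cells, and 8 of the 10 genes were higher in them (24.7% of all 12758 genes measured) and 1, Tfrc, was lower (26.5% of all genes). The ratios were 10.5 (9.83 to 11.2) for Mt1, 9.99 (8.82 to 11.4) for Mt2, 5.76 (4.65 to 7.22) for Hmox1, 2.54 (2.48 to 2.6) for Ftl1, 2.13 (2.08 to 2.18) for Fth1 and 0.217 (0.12 to 0.398) for Tfrc. Gclm differed by less than 1.5-fold, with a ratio of 1.07 (0.933 to 1.23). The Slc40a1 ratio of 13.5 (4.57 to 65.9) rests on 3 UMIs in endothelial-like cells. The median log2 ratio was 1.26, against -0.07 over all genes.

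The first comparison of the design sets cells with surface Lin28 against cells without it, all of them negative for cKit. Over all cells, 6 of the 10 genes were higher in the Lin28+/cKit- library than in the Lin28-/cKit- library (23.8% of all 13765 genes measured were), 1 was lower (27.8% of all genes were) and the median log2 ratio was 0.77, against -0.08 over all genes. Tfrc had 13.9 (11.4 to 16.9) CPM in the Lin28+/cKit- library and 1.67 (1.27 to 2.17) in the Lin28-/cKit- library, a ratio of 8.31 (5.96 to 11.7). Slc40a1 had 46.5 (41.7 to 51.7) and 8.26 (7.32 to 9.28), a ratio of 5.63 (4.79 to 6.61), and Hmox1 had 551 (535 to 569) and 102 (99.1 to 106), a ratio of 5.38 (5.14 to 5.63). Among cells with at most 5% mitochondrial UMIs the Slc40a1 ratio was 1.54 and the Hmox1 ratio 3.33, and among cells with Xist and no Y-linked UMIs the Slc40a1 ratio was 2.08 and the Tfrc ratio 4.23. From means over cells the Tfrc ratio was 4.36, and with 10 CPM added to both means, more than the Lin28-/cKit- level of either gene, it was 1.61 and the Slc40a1 ratio 2.39. All 3 stayed above 1.5-fold in these settings. These 3 genes were also the ones whose levels in Lin28+/cKit- macrophage-like cells stood furthest above those in Lin28-/cKit- fibroblast-like cells. Ftl1 had 8167 and 3709 (ratio 2.2), Fth1 6373 and 3469 (ratio 1.84) and Mt1 2927 and 1847 (ratio 1.58 (1.56 to 1.61)). Mt2 did not follow Mt1: it had 482 in the Lin28+/cKit- library and 505 in the Lin28-/cKit- library, a ratio of 0.956 (0.922 to 0.991). Srxn1 was lower, at 10 (7.85 to 12.6) against 20 (18.5 to 21.6) (ratio 0.5 (0.388 to 0.636), and 0.175 among the Xist cells), while Txnrd1 (ratio 1.3) and Gclm (ratio 0.711) stayed within 1.5-fold. The shares of macrophage-like cells, 39.2% and 0.352%, and of fibroblast-like cells, 4.85% and 69.0%, differed with the sort, and in whole libraries a change in cell shares and a change in level per cell cannot be told apart.

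**Figure D3:**
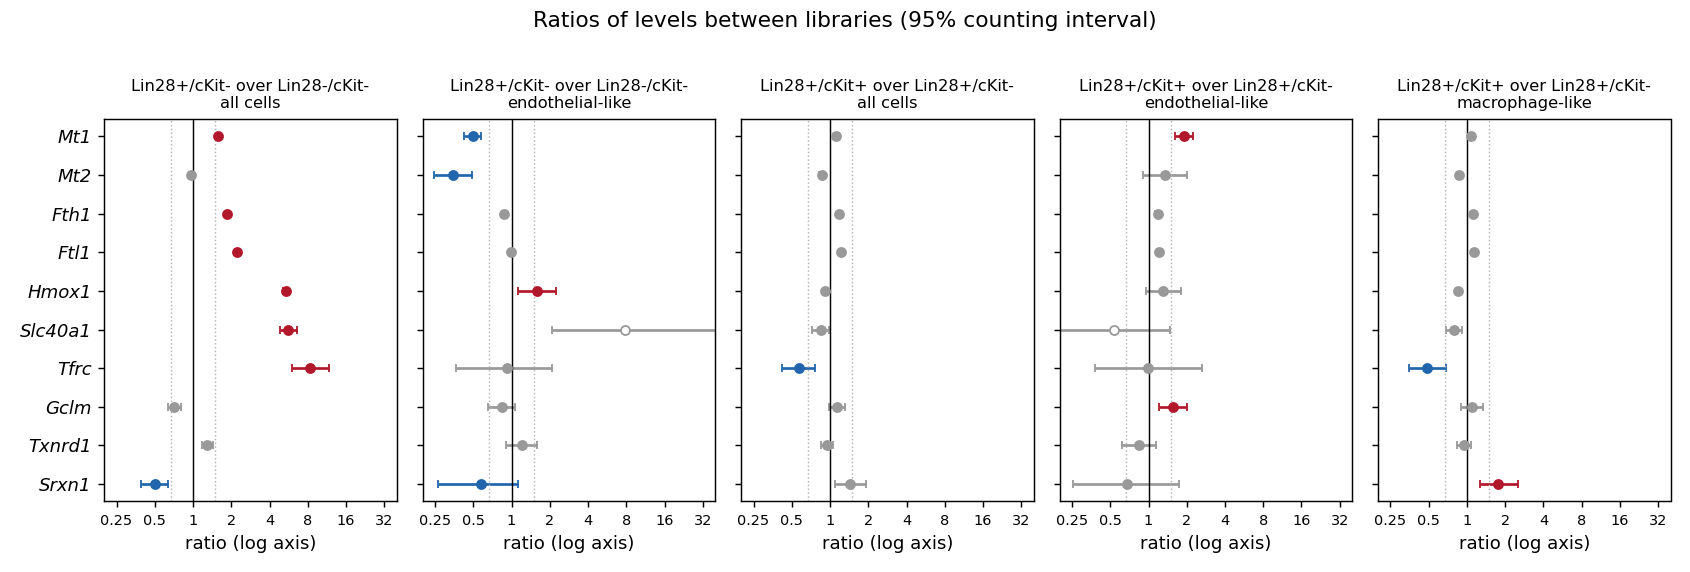
Ratio of each gene's level between libraries (log axis) with 95% counting intervals, for all cells and within classes. Red points were higher and blue points lower by at least 1.5-fold (dotted lines), grey points neither, and open points had under 20 UMIs. Over all Lin28+/cKit- cells 6 genes were higher, up to 8.31 for Tfrc, and within endothelial-like cells 1 of 9 was (Hmox1, 1.59).

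Endothelial-like cells were the only named class with at least 50 cells in both the Lin28+/cKit- and the Lin28-/cKit- library. Of 9 genes with enough UMIs, 1 was higher in Lin28+/cKit- endothelial-like cells (6.39% of all 10321 genes measured) and 3 were lower (12.1%), with a median log2 ratio of -0.19, against -0.04 over all genes. Hmox1 had 32.3 (24.8 to 41.2) CPM in Lin28+/cKit- cells and 20.3 (16.3 to 25.1) in Lin28-/cKit- cells, a ratio of 1.59 (1.13 to 2.22). Mt1 was lower, at 101 against 205 (ratio 0.494 (0.422 to 0.577)), as were Mt2 (ratio 0.348 (0.244 to 0.486)) and Srxn1 (ratio 0.572 (0.265 to 1.13), an interval that includes 1). Ferritin did not follow: Ftl1 had a ratio of 0.999 (0.957 to 1.04) and Fth1 of 0.88 (0.843 to 0.918).

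Markers of other classes also differed between these endothelial-like cells, and in opposite directions. Fibroblast markers were lower in Lin28+/cKit- cells, as Mt1, Mt2 and Srxn1 were, and macrophage markers were higher, as Hmox1 was. Their part in these differences was not tested. Summed fibroblast markers stood at 190.1 CPM in Lin28+/cKit- endothelial-like cells and 2671 in Lin28-/cKit- endothelial-like cells, with 8 and 9 of 10 markers detected, and summed macrophage markers at 462 and 46.8, with 10 and 6 of 10 detected. With the free RNA estimate subtracted, Mt1 was 15.2 in Lin28+/cKit- cells and 6.43 in Lin28-/cKit- cells. The Mt1 ratio was then 2.36 and the Mt2 ratio 1.28. The estimate took off 85% and 96.9% of the measured Mt1 level and 68.7% and 91.5% of the Mt2 level. Remainders this small cannot show the direction of either ratio. That estimate counts all fibroblast marker UMIs of Lin28-/cKit- endothelial-like cells as free RNA, also those of cluster 9. The Mt1 ratio was 0.743 from means over cells and 0.742 once the 5% with the top doublet scores were left out, and the Mt2 ratio 0.529 from means over cells. In cells with Xist and no Y-linked UMI, the Hmox1 ratio was 0.974 and the Srxn1 ratio 1.87. Single endothelial clusters gave smaller Mt1 differences in capillary cluster 2 (ratio 0.811 (0.64 to 1.02)) and arterial cluster 4 (0.763 (0.518 to 1.1)) than in the Lrg1 and Col13a1 cluster 8 (0.54 (0.362 to 0.79)). Endocardial cluster 9 was not compared, as it held 108 of the 934 Lin28-/cKit- but 11 of the 246 Lin28+/cKit- endothelial-like cells. It held 397 of the 868 Mt1 UMIs and 113 of the 251 Mt2 UMIs of Lin28-/cKit- endothelial-like cells. The part of this cluster in the class ratios was not tested. In cluster 2, 1 of 8 genes was higher (Hmox1, 1.64 (1.01 to 2.69), against 7.92% of all genes) and 2 lower (Mt2 and Srxn1, against 9.42%). In cluster 4, 0 of 7 were higher (9.59%) and 1 lower (Mt2, against 19.6%), with Hmox1 at 0.838 (0.336 to 1.83). In cluster 8, 1 of 6 was higher (Txnrd1, 1.77 (0.939 to 3.39), an interval that includes 1, against 10.5%) and 2 lower (Mt1 and Mt2, against 11.2%).

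The second comparison sets cells with surface cKit against cells without it, all of them positive for Lin28. The Lin28+/cKit+ and Lin28+/cKit- libraries were close: over all cells 0 of the 10 genes were higher in the Lin28+/cKit+ library (3.18% of all 12200 genes measured), 1 was lower (10.6%), and the median log2 ratio was 0.04, against -0.10 over all genes. The lower gene was Tfrc, at 7.88 (6.27 to 9.79) in the Lin28+/cKit+ library and 13.9 (11.4 to 16.9) in the Lin28+/cKit- library, a ratio of 0.567 (0.419 to 0.765), which was 1.03 among cells with Xist and no Y-linked UMIs. Slc40a1 had a ratio of 0.842 (0.728 to 0.975) over all cells and 1.56 among those Xist cells. Ftl1 had 9946 and 8167 (ratio 1.22 (1.21 to 1.23)), Fth1 7549.6 and 6373 (ratio 1.18 (1.17 to 1.2)), Mt1 3283 and 2927 (ratio 1.12 (1.1 to 1.14)) and Mt2 414 and 482 (ratio 0.86 (0.822 to 0.899)). The differences of the ferritins and metallothioneins exceed counting error but are under 1.5-fold, and with 1 library a group the spread between libraries of the same kind is unknown. The Lin28+/cKit- library enters both comparisons, so their values are not independent.

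Within macrophage-like cells, 1 of the 10 genes was higher in the Lin28+/cKit+ library (3.8% of all 10489 genes measured) and 1 was lower (7.36%), with a median log2 ratio of 0.02, against -0.09. Tfrc had 9.5 CPM in Lin28+/cKit+ cells and 19.4 in Lin28+/cKit- cells (65 and 86 UMIs), a ratio of 0.488 (0.348 to 0.682). Srxn1 had 19.1 and 10.9 (131 and 48 UMIs), a ratio of 1.76 (1.26 to 2.51). Slc40a1 was at a ratio of 0.79 (0.679 to 0.918) and Hmox1 at 0.848 (0.813 to 0.885). Among macrophage-like cells with Xist and no Y-linked UMIs (94 Lin28+/cKit+ and 38 Lin28+/cKit- cells) the Slc40a1 ratio was on the other side of 1 and past 1.5-fold, at 1.58 from 58 and 21 UMIs. The Srxn1 ratio in those cells was 6.86, from 24 and 2 UMIs, and the Tfrc ratio 0.715. With 10 CPM added to means over cells the Srxn1 ratio was 1.32 and the Tfrc ratio 0.677, and among cells with at most 5% mitochondrial UMIs the Slc40a1 ratio was 0.642 and the Hmox1 ratio 1.03. The Folr2-type cluster 6 made up 268 of 600 Lin28+/cKit+ and 179 of 267 Lin28+/cKit- macrophage-like cells, and within it 1 of 10 genes was higher (Srxn1, 1.95 (1.27 to 3.05), against 4.13% of all genes) and 1 lower (Tfrc, 0.654 (0.453 to 0.939), against 6.77%), with Slc40a1 at 1.06 (0.897 to 1.25). Within cluster 7, 0 of 10 were higher (8.68%) and 2 lower (10.2%), namely Tfrc (0.376 (0.145 to 0.986)) and Slc40a1 (0.569 (0.388 to 0.843)), with Srxn1 at 1.39 (0.78 to 2.63).

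Within endothelial-like cells, 2 of 9 genes with enough UMIs were higher in the Lin28+/cKit+ library (7.14% of all 9649 genes measured) and 0 were lower (7.06%), with a median log2 ratio of 0.28, against -0.01. Mt1 had 193 CPM in Lin28+/cKit+ cells and 101 in Lin28+/cKit- cells, a ratio of 1.9 (1.61 to 2.25), and Gclm had 72.9 (63 to 83.9) and 46.9 (37.8 to 57.4), a ratio of 1.55 (1.21 to 2.01). Summed macrophage markers moved with Mt1, at 729 in Lin28+/cKit+ and 462 in Lin28+/cKit- endothelial-like cells (10 of 10 detected in both). Their part in the Mt1 difference was not tested. With free RNA subtracted the Mt1 ratio was 3.77, from remainders of 57.1 and 15.2 CPM. For Gclm the free RNA share of the level was 2.71% and 2.63%. Cluster by cluster, the higher genes were Mt1 alone in cluster 2 (1 of 7, against 7.2%, and 0 lower, against 8.96%), Mt1, Mt2, Gclm and Txnrd1 in cluster 4 (4 of 7, against 13.9%, and 0 lower, against 9.56%) and Mt1 in cluster 8 (1 of 6, against 9.76%), where Txnrd1 was lower (1 of 6, against 14.1%). Gclm stood at 1.32 (0.921 to 1.92), 1.75 (1.03 to 3.13) and 1.34 (0.651 to 2.73) in clusters 2, 4 and 8. Endocardial cluster 9, with 32 Lin28+/cKit+ and 11 Lin28+/cKit- cells, was not compared.

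Ferroportin and the transferrin receptor separated the 2 macrophage-like clusters, while ferritin and metallothionein stayed within 1.5-fold. Cluster 6 is led by the resident macrophage genes Folr2, Fcna, Vsig4 and Timd4, and cluster 7 by Il1b, Ccl3, Ccl4 and MHC class II genes. Slc40a1 stood at 87.7 (78.3 to 98) in cluster 6 and 23.1 (18.2 to 29) in cluster 7 of the Lin28+/cKit+ library, a ratio of 3.79 (2.94 to 4.95), and at 83 and 40.7 in the Lin28+/cKit- library, a ratio of 2.04 (1.48 to 2.86). Tfrc stood at 15 and 3.39 in the Lin28+/cKit+ library (ratio 4.42 (2.28 to 9.37)) and 22.9 and 9.03 in the Lin28+/cKit- library (ratio 2.54 (1.31 to 5.5)). The importer and the exporter were thus both higher in the Folr2-type cluster of each library. Hmox1 was at 886 and 577 in the Lin28+/cKit+ library (ratio 1.53 (1.45 to 1.63)) and 944 and 659 in the Lin28+/cKit- library (ratio 1.43 (1.32 to 1.56)). In all, 3 of 10 genes were higher in cluster 6 of the Lin28+/cKit+ library (13.8% of all 9638 genes) and 2 of 10 in the Lin28+/cKit- library (19.6% of 9007), and 0 were lower (4.96% and 5.9%). The higher count of the Lin28+/cKit- library and both lower counts were near the share of all genes. The median log2 ratios were 0.11 and 0.33, against 0.16 and 0.16 over all genes. Mt1 ratios were 0.881 and 0.967, Fth1 ratios 0.918 and 1, and Ftl1 ratios 0.955 and 0.96. Median depth was 11143 and 15590 UMIs in cluster 6 and 9235.5 and 12328 in cluster 7, in Lin28+/cKit+ and Lin28+/cKit- cells.

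Fibroblast-like cells of the Lin28-/cKit- library fell into clusters with high and with low metallothionein. In clusters 0, 3 and 5 (813, 589 and 452 cells) Mt1 stood at 2437 (2403 to 2471), 2454 (2419 to 2489) and 3862 (3807 to 3918) CPM, and in clusters 1 and 12 (792 and 99 cells) at 409.8 (394 to 426) and 351 (316 to 389). Mt2 was at 644, 715 and 1066 in clusters 0, 3 and 5, and 100.5 and 69.1 in clusters 1 and 12. Hmox1 split the same way, at 167, 113 and 172 against 31.5 and 23.7. The split ran across fibroblast types: clusters 3 and 12 both scored highest for the adventitial list (Pi16, Cd248, Dpp4, Ackr3), clusters 0 and 1 both for the G0s2 and Smoc2 list, and cluster 5 for the Inmt and Cxcl14 list. The scores of clusters 0 and 1 were weaker, with mean log2 folds of 1.01 and 0.854, against 2.17, 2.07 and 2.37 for clusters 3, 12 and 5. Cluster 5 had no low-metallothionein cluster of its own type.

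Cluster 0 against cluster 1 gave ratios of 5.95 (5.71 to 6.2) for Mt1, 6.4 (5.89 to 6.97) for Mt2 and 5.3 (4.56 to 6.18) for Hmox1, the 3 of 9 measured genes that were higher (4.77% of all 11387 genes), while Slc40a1 was lower (0.639 (0.466 to 0.873), where 7.02% of all genes were lower). Cluster 3 against cluster 12 gave 6.99 (6.31 to 7.77), 10.4 (8.22 to 13.2) and 4.77 (3.21 to 7.41), and also 2.04 (1.48 to 2.91) for Txnrd1 and 6.11 (1.04 to 247) for Slc40a1, which rests on 1 UMI in cluster 12; these were 5 of 9 genes higher (12.4% of 10724) and 0 lower (10.1%). Cluster 5 against cluster 1 had 5 of 9 genes higher (6.19% of 11073) and 0 lower (14.2%), namely Mt1 (9.43 (9.04 to 9.82)), Mt2 (10.6 (9.76 to 11.5)), Hmox1 (5.46 (4.67 to 6.4)), Txnrd1 (1.83 (1.55 to 2.15)) and Ftl1 (1.53 (1.5 to 1.55)). Ferritin heavy chain was nearly level, with Fth1 at 3926, 3662, 3472, 3088 and 3942 in clusters 0, 1, 3, 12 and 5. Gclm and Srxn1 stayed within 1.5-fold in all 3 pairs. The median log2 ratios were 0.41, 1.03 and 0.61, against -0.11, -0.08 and -0.20 over all genes.

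**Figure D4:**
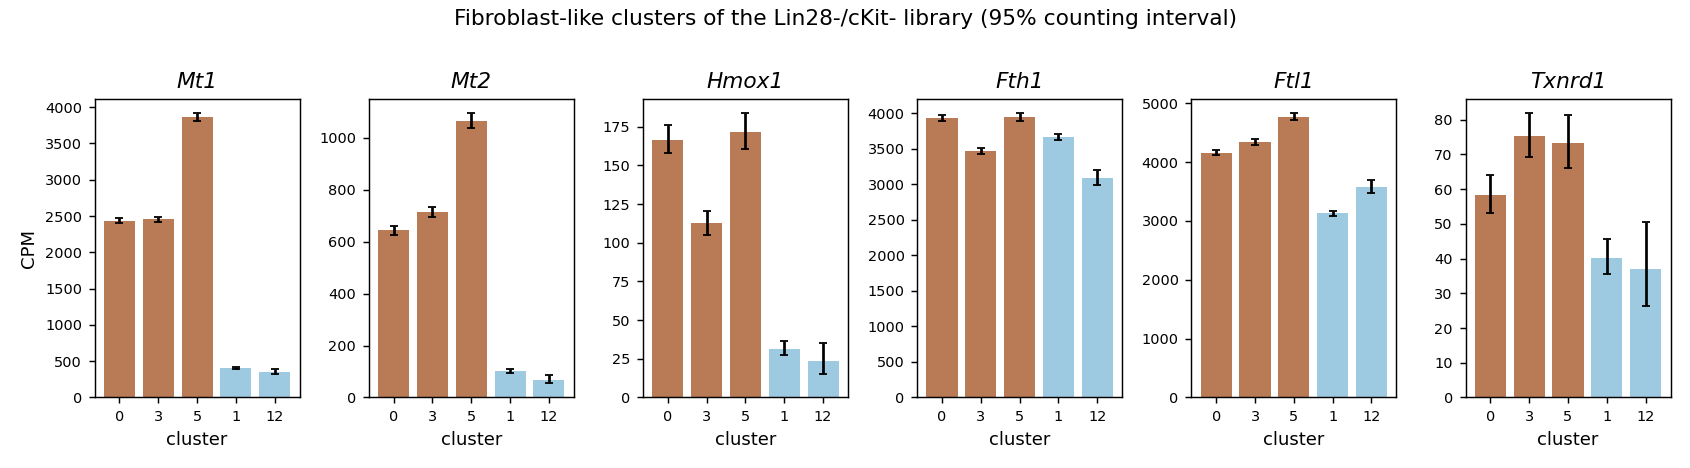
Level (CPM, bars from 0, 95% counting intervals) of 6 genes in the fibroblast-like clusters of the Lin28-/cKit- library, with clusters 0, 3 and 5 in brown and clusters 1 and 12 in blue. Mt1 stood between 2437 and 3862 in the brown clusters and at 409.8 and 351 in the blue ones, while Fth1 ranged from 3088 to 3942.

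The split was seen among cells with Y-linked transcripts and among cells with Xist. Among cells with Y-linked and no Xist UMIs, Mt1 was 2308 CPM in cluster 0 and 369 in cluster 1, and among cells with Xist and no Y-linked UMIs it was 2737 and 532. In clusters 3 and 12 it was 2304 and 294 in the Y-linked cells and 3246 and 422 in the Xist cells. The immediate early genes Fos and Atf3 and the heat shock gene Hspa1a, 3 genes chosen after their values were seen, stood higher in the same clusters as metallothionein. Fos stood at 5155, 3456 and 4342 in clusters 0, 3 and 5, against 649 and 389.8 in clusters 1 and 12. Atf3 stood at 899, 950 and 946, against 69.2 and 79.5, and Hspa1a at 645, 252 and 205, against 89.1 and 76.6. These 3 genes entered the clustering, and their part in the metallothionein difference was not tested. Median depth was 9986, 12759 and 10847.5 UMIs per cell in clusters 0, 3 and 5, and 8236 and 11074 in clusters 1 and 12.

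Mt1 varied widely from cell to cell. Across the 2745 fibroblast-like cells of the Lin28-/cKit- library the 10th percentile was 93.9 CPM, the median 895, the 90th percentile 5783 and the maximum 24482, and the 10% of cells with the most Mt1 held 43.2% of its UMIs. The share of cells above the class median was 64.2%, 65.9% and 77.4% in clusters 0, 3 and 5, and 12.8% and 11.1% in clusters 1 and 12. Macrophage-like cells were more even, with median cell levels of 4233 and 3929.8 and with 26.4% and 27.7% of Mt1 UMIs in the top 10% of cells of the Lin28+/cKit+ and Lin28+/cKit- libraries. Hmox1 was more uneven in both classes, the top 10% of cells holding 44.3% and 40% of its UMIs in Lin28+/cKit+ and Lin28+/cKit- macrophage-like cells and 68.8% in Lin28-/cKit- fibroblast-like cells. For Ftl1 the top 10% of Lin28+/cKit+ and Lin28+/cKit- macrophage-like cells held 24.6% and 25%.

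Mt1 and Mt2 levels of single cells moved together where both were abundant. Pearson's r over cells, given as a description, was 0.51 in 600 Lin28+/cKit+ and 0.43 in 267 Lin28+/cKit- macrophage-like cells, 0.73 in 2745 Lin28-/cKit- fibroblast-like cells, and between -0.09 and 0.14 in endothelial-like cells. For Fth1 and Ftl1 it was 0.27 and 0.38 in Lin28+/cKit+ and Lin28+/cKit- macrophage-like cells and 0.19 in fibroblast-like cells. Cells share library and depth, both genes of a pair are divided by the same cell total, and Mt1 itself had a Spearman correlation with the total UMIs of the cell of 0.24 in fibroblast-like cells.

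The balance within each pair differed between classes, and also between clusters of a class. Macrophage-like cells held 7.96 (7.7 to 8.23) and 6.4 (6.16 to 6.66) Mt1 UMIs per Mt2 UMI in the Lin28+/cKit+ and Lin28+/cKit- libraries, and Lin28-/cKit- fibroblast-like cells 3.64 (3.57 to 3.7). The 33 fibroblast-like cells of the Lin28+/cKit- library, at 3.42 (3.02 to 3.87), sat with the Lin28-/cKit- fibroblasts rather than with the macrophages of their own library. Endothelial-like cells held 6.96 (5.45 to 9), 4.9 (3.49 to 7.04) and 3.46 (3 to 4) in the Lin28+/cKit+, Lin28+/cKit- and Lin28-/cKit- libraries, where free RNA could supply the shares of both genes given above.

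For ferritin, macrophage-like cells held 1.36 (1.34 to 1.37), 1.34 (1.32 to 1.36) and 1.18 (1.08 to 1.28) Ftl1 UMIs per Fth1 UMI in the Lin28+/cKit+, Lin28+/cKit- and Lin28-/cKit- libraries, fibroblast-like cells 0.962 (0.834 to 1.11), 1.03 (0.954 to 1.11) and 1.09 (1.09 to 1.1), and endothelial-like cells 1.07 (1.03 to 1.12), 1.04 (0.992 to 1.1) and 0.918 (0.888 to 0.949). Lymphatic endothelial-like cells stood far below, at 0.328 (0.283 to 0.379), 0.317 (0.269 to 0.373) and 0.323 (0.266 to 0.39) from 13, 17 and 19 cells. Their Fth1 level was 7181, 5210.1 and 5445 CPM, with Ftl1 at 2356, 1654 and 1759. B cell-like cells had a similar balance, 0.329 (0.281 to 0.385) in 10 Lin28+/cKit- cells and 0.384 (0.325 to 0.454) in 20 Lin28-/cKit- cells, with Fth1 at 7312 and 6403. Both classes were thus rich in heavy chain relative to light chain transcripts in every library that held at least 10 of their cells. Their Ftl1 levels, with B cell-like cells at 2408 and 2462, were not below those of endothelial-like cells of the same library (1948, 1599.7 and 1601). Among blood endothelial clusters the endocardial cluster 9 leaned the same way, at 0.751 (0.678 to 0.832) in 32 Lin28+/cKit+ cells and 0.724 (0.681 to 0.769) in 108 Lin28-/cKit- cells, with Fth1 at 2879 and 2831. Arterial cluster 4 stood at 1.2, 1.19 and 1.02 in the Lin28+/cKit+, Lin28+/cKit- and Lin28-/cKit- libraries. Lin28-/cKit- fibroblast-like clusters 0, 1, 3, 12 and 5 stood at 1.06, 0.854, 1.25, 1.16 and 1.21. Some clusters of both classes thus reached the 1.18 of Lin28-/cKit- macrophage-like cells.

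**Figure D5:**
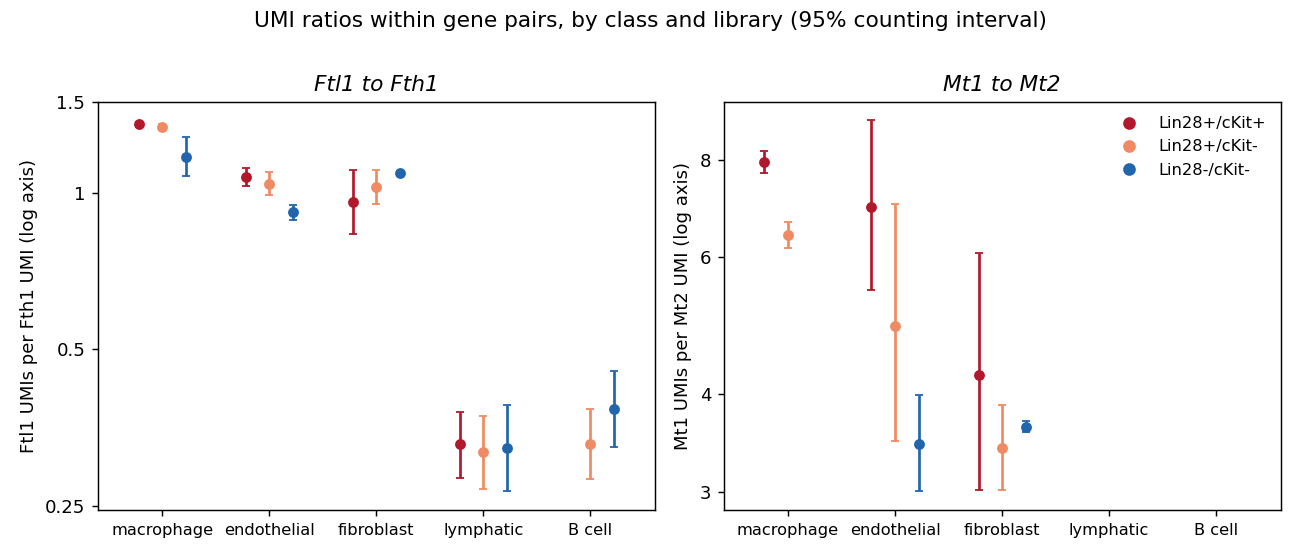
UMIs of Ftl1 per UMI of Fth1 (left) and of Mt1 per UMI of Mt2 (right), on log axes with 95% counting intervals, by class, with Lin28+/cKit+, Lin28+/cKit- and Lin28-/cKit- libraries from left to right; classes with under 20 UMIs of either gene are not drawn. Lymphatic and B cell-like cells sit between 0.317 and 0.384 for ferritin, and macrophage-like cells between 1.18 and 1.36.

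The other iron genes leaned to macrophage-like cells too. Of 26 measured iron and haem handling genes, 14 were higher and 4 lower in Lin28+/cKit+ macrophage-like than endothelial-like cells, and 13 higher and 3 lower of 26 in the Lin28+/cKit- library, against 21.8% and 22.4% of all genes higher and 41.3% and 38.1% lower, with median log2 ratios of 0.63 and 0.60. The largest ratios were those of Slc11a1, which moves iron out of phagosomes (47.1 (24.7 to 103) and 42.6 (20.6 to 106)), Cd163, the receptor for haemoglobin bound to haptoglobin (28.3 (15.7 to 57) and 75.5 (32.2 to 233)), Lrp1, which takes up haem bound to hemopexin (29 (16.5 to 56.3) and 106 (36 to 514)), and transferrin, Trf (23.2 (18 to 30.3) and 50.4 (34.1 to 78.1)). In Lin28-/cKit- fibroblast-like against endothelial-like cells 9 were higher and 4 lower of 29, against 24.7% and 26.5% of all genes, so the higher count was near the share of all genes. The median was -0.01, and the largest ratios were those of Lrp1 (17 (14.5 to 19.9)), the ferrireductase Steap3 (10.8 (8.24 to 14.4)) and ceruloplasmin, Cp (6.78 (6.06 to 7.62)).

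Of 12 measured zinc genes 0 were higher and 7 lower in Lin28+/cKit+ macrophage-like than endothelial-like cells, where 21.8% of all genes were higher and 41.3% lower. In the Lin28+/cKit- library 1 was higher and 4 lower of 12, against 22.4% and 38.1% of all genes, so the lower count there was near the share of all genes. The largest ratios were those of Slc39a1 (1.37 (1.06 to 1.8)) in the Lin28+/cKit+ library and Slc39a6 (2.2 (1.14 to 4.67)) in the Lin28+/cKit- library. The zinc exporter gene Slc30a1, like Mt1 a known target of MTF1 and named after its values were seen, was lower, with ratios of 0.259 (0.2 to 0.334) and 0.278 (0.213 to 0.361). Mtf1 itself had ratios of 0.821 (0.599 to 1.14) and 0.678 (0.462 to 1). A part of MTF1 in the Mt1 levels was not tested. In fibroblast cluster 0 against cluster 1, 0 of 12 were higher and 0 lower, where 4.77% of all genes were higher and 7.02% lower, and Mtf1 had the largest ratio (1.17 (0.875 to 1.56)). Both counts were near the share of all genes.

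Of the NRF2 targets and regulators, 11 of 29 were higher and 11 lower in Lin28+/cKit+ macrophage-like than endothelial-like cells, where 21.8% of all genes were higher and 41.3% lower. In the Lin28+/cKit- library 10 of 27 were higher and 8 lower, against 22.4% and 38.1% of all genes. The largest ratios were Slc7a11, the cystine importer (16 (4.3 to 135) and 19.7 (3.36 to 797), from 2 and 1 endothelial UMIs), Abcc1, a glutathione conjugate exporter (4.64 (3.03 to 7.44) and 4.43 (2.88 to 7.13)), Osgin1 (3.89 (2.6 to 6.07) and 4.53 (2.82 to 7.69)) and G6pdx, which makes NADPH (3.62 (2.43 to 5.6) and 6.57 (3.83 to 12.2)). In Lin28-/cKit- fibroblast-like against endothelial-like cells 15 were higher and 4 lower of 32, against 24.7% and 26.5% of all genes, led by the glutathione transferase Gsta3 (9.93 (8.1 to 12.3)) and Ugdh (8.6 (7.01 to 10.7)). In fibroblast cluster 0 against cluster 1, 4 of 31 were higher and 0 lower, against 4.77% and 7.02% of all genes, and the largest ratios were those of the small Maf genes Maff (7.94 (6.92 to 9.15)) and Mafk (2.29 (1.93 to 2.73)) and of Osgin1 (3.78 (2.59 to 5.68)). In the same pair 0 of 26 antioxidant enzymes were higher and 0 lower, against the same shares of all genes, so both counts were near the share of all genes.

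Of 24 antioxidant enzymes, 10 were higher and 9 lower in Lin28+/cKit+ macrophage-like than endothelial-like cells, where 21.8% of all genes were higher and 41.3% lower, so the lower count was near the share of all genes. In the Lin28+/cKit- library 11 of 24 were higher and 6 lower, against 22.4% and 38.1% of all genes. The secreted peroxidase gene Gpx3 had 34 UMIs in Lin28+/cKit+ macrophage-like and 0 in Lin28+/cKit+ endothelial-like cells, and a ratio of 12.6 (3.32 to 106) in the Lin28+/cKit- library. Glutaredoxin, Glrx, had ratios of 8.38 (3.97 to 21.2) and 5.51 (2.98 to 11.3). Selenoprotein P, Selenop, stood at 2587 in Lin28+/cKit+ macrophage-like and 572 in Lin28+/cKit+ endothelial-like cells, a ratio of 4.52 (4.29 to 4.76), and glutathione peroxidase 1, Gpx1, at a ratio of 2.93 (2.71 to 3.16). Fibroblast-like cells of the Lin28-/cKit- library had 10 higher and 2 lower of 26, against 24.7% and 26.5% of all genes, led by Gpx8 (12.4 (8.96 to 17.8)), Gpx3 (12.1 (10.9 to 13.5)) and the secreted superoxide dismutase Sod3 (10.3 (7.5 to 14.6)). Of 10 glucocorticoid response genes, 3 were higher and 1 lower in fibroblast cluster 0 against cluster 1, where 4.77% of all genes were higher and 7.02% lower. The higher genes were Dusp1 (4.75 (4.54 to 4.96)), Sgk1 (2.88 (2.55 to 3.27)) and Cebpd (2.43 (2.36 to 2.5)), and the lower gene was Tsc22d3 (0.647 (0.616 to 0.679)), a direct target of the glucocorticoid receptor, which was named after its value was seen. The other genes of this list were neither higher nor lower by 1.5-fold. Dusp1 and Cebpd are also known as immediate early genes. No cause of the split between these clusters was tested.

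Over all Lin28+/cKit- against Lin28-/cKit- cells, 12 iron and haem genes were higher and 8 lower of 32, 1 zinc gene higher and 4 lower of 12, 7 NRF2 genes higher and 12 lower of 32, and 5 antioxidant enzymes higher and 9 lower of 26, against 23.8% of all genes higher and 27.8% lower. Slc11a1 had the largest ratio with UMIs in both libraries (89.8 (64.2 to 129)); Cd163, with 874 UMIs in the Lin28+/cKit- library, had 0 in the Lin28-/cKit- library. Between Lin28+/cKit+ and Lin28+/cKit- macrophage-like cells, Cd163 was lower (0.612 (0.555 to 0.675)), and of 24 antioxidant enzymes 0 were higher and 1 lower (Gpx3, 0.392 (0.248 to 0.611)), against 3.8% and 7.36% of all genes. Cd163 and Gpx3 were named after their values were seen.

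The genes most like each member were sought by Pearson's r of log2(CPM + 1) over the 6 class-by-library sums with at least 50 cells, among 10171 genes. These sums separate cell classes, so many genes were close: 258 genes reached r of 0.95 with Mt1, 325 with Hmox1, 163 with Slc40a1 and 336 with Fth1. The nearest were Lsp1, Slc8a1 and Camk1d for Mt1, Sirpa, Cebpa and Gsdme for Hmox1, Fggy, Cdk6 and Zfp992 for Slc40a1, and Cst3, Bin1 and Ftl1 for Fth1. Over the 19 cluster-by-library sums, which also follow the splits within classes, the nearest were Mt2 (0.97), Cebpb (0.97) and Ifrd1 (0.96) for Mt1, Mob3c (0.95) for Hmox1, Tns3 (0.91), Cebpa (0.90) and Trf (0.89) for Slc40a1, and Ftl1 (0.98), Zeb2os (0.97) and Pid1 (0.96) for Fth1. At this finer level Mt2 was the gene nearest to Mt1, and Ftl1 the gene nearest to Fth1. The sums share libraries and depth.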

How the data were processed

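The 3 libraries, 1 per group, were measured by droplet single-cell RNA sequencing with a 10x Chromium 3′ v3.1 kit, per the labels' protocols. The authors deposited 1 table of genes by cells per library, whose values are the natural log of 1 plus 10000 times the UMI share of the cell, as the values show. Cell Ranger, Seurat 4.0.2 and mm10 are named per the submitters' processing notes; the cell filters were not given in the sources used here. Whole UMIs were recovered from these deposited values for 100% of entries (tolerance 0.01), taking the smallest value of each cell as 1 UMI.

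UMIs were summed over libraries, classes and clusters. Intervals are exact: Poisson for levels, conditional binomial for ratios and Clopper-Pearson for shares, all at 95% and for counting error only; the ratio step was tested on simulated data. With 1 library per group there is no test between groups. Cells were clustered with scanpy 1.11.5 and leidenalg 0.10.2 (2000 variable genes, 30 components, 15 neighbours, resolution 1) under Python 3.11.15, scipy 1.17.1, numpy 2.4.6 and matplotlib 3.10.9. The doublet caller marked 26 of 5833 cells (0.446%), too few to have worked, so no cell was removed. Classes were compared with at least 50 cells on both sides and clusters with at least 20, and 236 cells under 1000 UMIs were left out of thinned shares. A cluster with strong markers of a second type, or shallow with none of its own markers leading, stayed unnamed (119, 107 and 233 cells of the Lin28+/cKit+, Lin28+/cKit- and Lin28-/cKit- libraries).

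The members, lists and marker genes were chosen with earlier results of these data known. Beside the 10 members, the 2 to 4 measured genes with the largest ratio were named from each list, and the 3 genes most like Mt1, Hmox1, Slc40a1 and Fth1; gene comparisons between clusters within a class were chosen after values were seen. Alternatives changed the scaling, the averaging over cells, the cell filters, the UMI minimum, the fold, the clustering and the free RNA estimate.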

Additional observations from a re-analysis of the deposited data

How the results depend on the processing

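Counts of the 10 genes that were at least 1.5-fold higher or lower were recomputed under each alternative; 143 counts stayed within 1.5 times the reported count and 33 did not, and of the single-gene ratios 568 stayed within the counting interval, 156 moved outside it and 5 reversed. Reversed is used only of ratios past 1.5-fold as reported: another 44 values of ratios within 1.5-fold lay on the other side of 1, 24 of them inside the counting interval and 20 outside it. Of these 20, Slc40a1 in Lin28+/cKit+ against Lin28+/cKit- cells passed 1.5-fold the other way among the Xist cells (1.58 in macrophage-like cells and 1.56 over all cells), and the others were values of Mt2, Gclm, Hmox1, Txnrd1 and Ftl1. For Lin28+/cKit- against Lin28-/cKit- over all cells the reported counts were 6 higher and 1 lower, and 2 were lower among cells with Y-linked and no Xist UMIs. For Lin28+/cKit+ against Lin28+/cKit- over all cells (0 higher, 1 lower), 1 was higher with median of ratios scaling and 2 among cells with Xist and no Y-linked UMIs; 0 were lower with means over cells, with 1 or 10 added to these means, at a fold of 2, and among the Xist cells, where the Tfrc ratio reversed to 1.03. For Lin28+/cKit- against Lin28-/cKit- endothelial-like cells (1 higher, 3 lower), 0 were higher with 10 added, at a fold of 2, among the Xist cells and with classes from marker scores, and 2 with no UMI minimum and with free RNA subtracted; 1 was lower with 10 added and among the Xist cells, and 0 with free RNA subtracted. There the Hmox1 ratio reversed to 0.974 and the Srxn1 ratio to 1.87 among the Xist cells, and the Mt1 ratio to 2.36 and the Mt2 ratio to 1.28 with free RNA subtracted. The subtracted values rest on small remainders and cannot show a direction. For Lin28+/cKit+ against Lin28+/cKit- endothelial-like cells (2 higher, 0 lower), 1 was higher with means over cells, with 1 or 10 added, among the Xist cells and with marker scores, 0 at a fold of 2, and 4 among the Y-linked cells; 1 was lower with no UMI minimum, at resolution 0.5, with marker scores and with free RNA subtracted. For Lin28+/cKit+ against Lin28+/cKit- macrophage-like cells (1 higher, 1 lower), 0 were higher with 10 added and at a fold of 2 and 2 among the Xist cells; 0 were lower with 10 added and among the Xist cells. The alternatives by Y-linked and Xist UMIs, and counting the shallow unnamed cluster as macrophage-like, were chosen after seeing the data. The cause of these shifts was not tested.

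No paired analysis was possible because each group is 1 library. The spread between libraries of the same kind is therefore unknown, and no interval covers it. Tfrc, Srxn1 and Slc40a1 rest on few UMIs in several classes, so small differences in them were not detectable at this depth.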
